A study of Mus musculus with 6 samples.

Results

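The mitochondrial solute carriers named Slc25a were examined in messenger RNA from the hippocampus of mice in which Dicer1, which encodes the enzyme that finishes the making of microRNAs, was targeted in forebrain excitatory neurons. All gene symbols beginning with Slc25a were taken, with symbols marked as pseudogenes left out, which gave 44 members among 25896 symbols in the deposited tables. Each gene was read from its annotated transcript with the highest mean count. DICER1-ifKO mice were male C57BL/6 animals with both Dicer1 alleles floxed (Dicer1 flox/flox) and with CaMKIIa-creERT2, a Cre recombinase that tamoxifen activates and whose promoter is used in forebrain excitatory neurons. WT mice were male C57BL/6 animals with the same floxed alleles and no Cre, so that both groups carried the floxed alleles. Both groups received tamoxifen, and tissue was taken 3 weeks afterwards, from animals 3 months old. Each group had 3 libraries, each from the pooled RNA of 3 mice, stated to be biological replicates. Whole hippocampus was used, which also holds cells that do not use this promoter, so that a level is an average over all its cells. With no Cre in WT mice, the loss of Dicer1 and the presence of the activated recombinase cannot be told apart, nor can fewer cells of a type and less RNA per cell.

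Slc25 proteins sit mostly in the inner mitochondrial membrane, which is closed to charged metabolites, and each moves a small set of them, usually by exchanging one for another. They bring ADP and phosphate to the ATP synthase and carry ATP out, run the shuttles that pass cytosolic NADH into the respiratory chain, and admit amino acids, cofactors, iron and nucleotides to the matrix. In neurons the glutamate and aspartate carriers also link energy supply to the making and breakdown of glutamate. MicroRNAs pair through their seed, the bases near the 5′ end, with sites in the 3′ UTR of messenger RNAs and lower their level or translation. The design asks how messenger RNA levels in the adult hippocampus differ when Dicer1 is targeted in excitatory neurons.

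Counts over 1 transcript per gene summed to 15409074, 18008734 and 20677845 in the DICER1-ifKO libraries and to 11832794, 15826348 and 16125481 in the WT libraries. WT replicate 1 stood apart from the other 5 libraries on the first principal component (-26.6, against 1.5 to 10.1), and the deviation of its genes from their mean was related to transcript length (Spearman's rho -0.269 over 17112 genes, against -0.113 to 0.142 in the other libraries); results are therefore also given without it. For Dicer1 itself the log2 fold change was 0.04 (SE 0.06, edgeR adjusted p = 0.849), but its count spans the whole gene and does not check a deletion of part of it. Esr1, the gene of the estrogen receptor, part of which is fused to Cre in creERT2, was higher by a log2 fold change of 1.58 (SE 0.15, edgeR adjusted p = 7.53e-06). The summed level of 5 excitatory neuron markers was 5170 to 5521 CPM (counts scaled to a common library size after TMM normalization) in DICER1-ifKO libraries and 5017 to 5164 CPM in WT libraries, with 0 of 5 passing the test. That of 4 dentate granule cell markers was 252.2 to 273.7 CPM in DICER1-ifKO libraries and 285.3 to 295.0 CPM in WT libraries, with 1 of 4, Calb1, lower (log2 fold change -0.27, SE 0.05, adjusted p = 0.0323). That of 7 astrocyte markers was 3551 to 3705 CPM in DICER1-ifKO libraries and 3343 to 3521 CPM in WT libraries, with 0 of 7 passing. Single markers went both ways by log2 fold change, with the astrocyte markers Slc1a2 at 0.14 and Aqp4 at -0.16. Camk2a and Nrgn of the excitatory neuron markers were at 0.11 and -0.09, and the dentate marker Prox1 at 0.01. The median was 0.01 for the excitatory neuron and astrocyte markers and -0.11 for the dentate granule cell markers. The groups overlapped in the sums for inhibitory neurons, oligodendrocytes, microglia, endothelial cells, choroid plexus and erythrocytes, and 3 liver markers summed to at most 0.3896 CPM in any library. The part of these shifts in the results on the carriers was not tested.

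The carrier family as a whole was close to level between the groups. Of 42 members with enough reads to be tested, 0 passed an adjusted p of 0.05 (edgeR's quasi-likelihood test, Benjamini-Hochberg over 17405 genes), where 0.161% of all genes tested passed (0.126% higher and 0.0345% lower), and DESeq2 called 0 of the 11 members to which it gave an adjusted p, the other 31 having none after its own filter on low counts. At an unadjusted p below 0.05 stood 1 member, Slc25a22, or 2.38% of those tested, against 10.4% of all genes. The log2 fold changes of the members ran from -0.58 to 0.16 with a median of -0.02, beside a median of -0.003 over all genes tested. Of the 42, 17 were positive (40.5%, against 49.0% of all genes) and 25 negative. The 95% interval of the fold change lay inside ±0.3 on the log2 scale in 25 of the 42 members, as it did in 9794 of all 17405 genes tested. Of the 24 members with a mean of 20 CPM or more, it did so in 23. For members with such an interval, any difference beyond that size falls outside it. In the 18 members below 20 CPM the SE was 0.09 to 0.41, against 0.04 to 0.09 in those above. All members together summed to 2359, 2307 and 2395 CPM in DICER1-ifKO libraries and to 2460, 2353 and 2367 CPM in WT libraries, and the groups overlapped. Without WT replicate 1, 0 members passed and their median was -0.004. With an offset for transcript length in each library, 0 members passed and their median was -0.007, beside -0.01 over all genes tested.

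**Figure D1:**
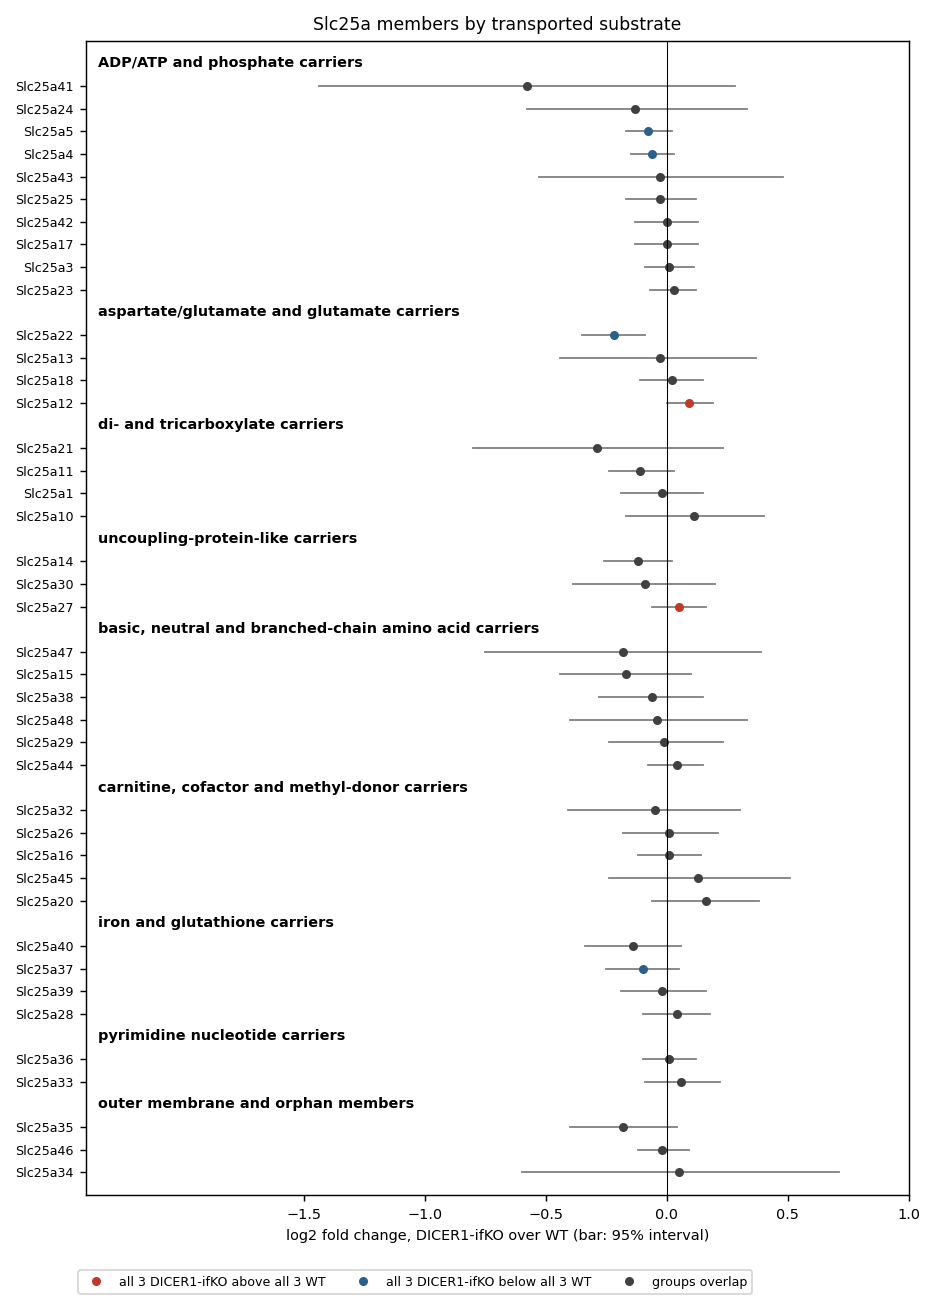
Log2 fold change (x axis, DICER1-ifKO over WT) of the tested Slc25a members, with 1 not shown, grouped by the role list in which each was placed. Points are edgeR estimates and bars their 95% intervals, and colour marks members whose 3 DICER1-ifKO libraries all lie above or below the 3 WT libraries. Most points sit within 0.1 of 0, and the widest bars belong to members with few reads, such as Slc25a41 at -0.58.

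In 6 members the libraries of the groups did not overlap, with 2 higher and 4 lower in DICER1-ifKO, where 16.1% of all genes tested did not overlap, 7.99% higher and 8.08% lower. These were Slc25a22, Slc25a5, Slc25a4 and Slc25a37 on the lower side and Slc25a12 and Slc25a27 on the higher side. Their log2 fold changes were between -0.22 and 0.09.

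**Figure D2:**
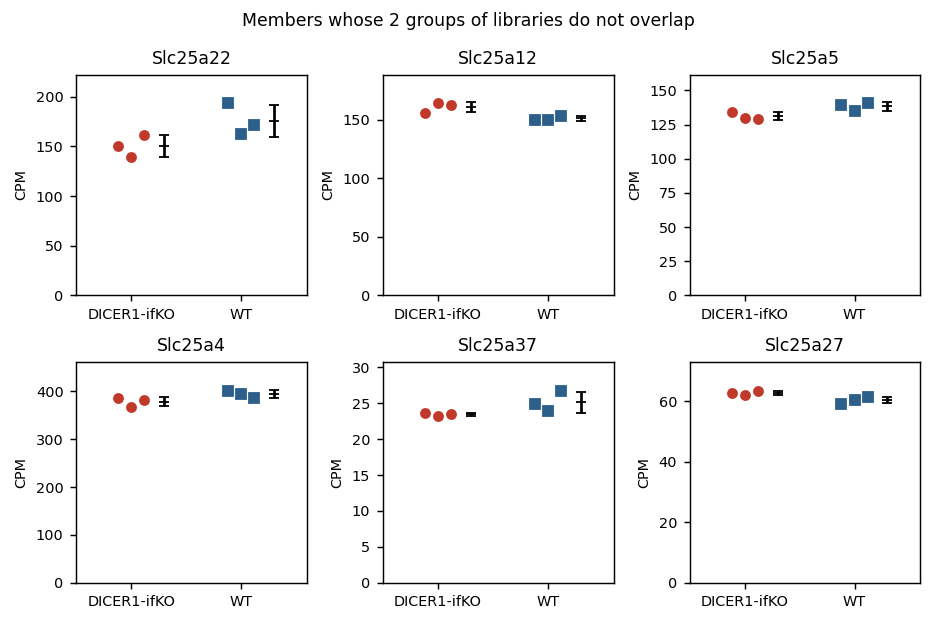
Level in CPM (y axis, starting at 0) of the 6 members whose groups of libraries do not overlap; points are libraries (n = 3 per group, DICER1-ifKO left, WT right) and the bar beside each group is its mean ± SD. The means differ most in relative terms for Slc25a22, though its highest DICER1-ifKO library (161.8 CPM) and lowest WT library (162.1 CPM) nearly touch.

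Per kilobase of transcript, which allows genes to be compared, the family spanned more than 3 orders of magnitude in the hippocampus. Slc25a4, the ADP/ATP carrier of excitable tissues, was highest with a mean of 201 CPM per kilobase over the 6 libraries, and was followed by the phosphate carrier Slc25a3 (152), the calcium-sensitive ATP-Mg/phosphate carrier Slc25a23 (112), the ADP/ATP carrier Slc25a5 (109), the glutamate carrier Slc25a22 (58.0), the oxoglutarate carrier Slc25a11 (38.5) and the aspartate/glutamate carrier Slc25a12 (24.6). The ranges of neighbours in this order were separate over the 6 libraries, except for Slc25a23 (109 to 116) and Slc25a5 (104 to 113). From Slc25a12 to Slc25a17 (19.5), 9 members were so close that each overlapped the next. At the low end, Slc25a34 had 0.649 CPM per kilobase, and Slc25a31 (0.064) and Slc25a2 (0.0625) stood apart below it. Slc25a31, the ADP/ATP carrier known from testis, had 2, 2 and 5 reads in DICER1-ifKO libraries and 1, 1 and 3 reads in WT libraries. Slc25a2, an ornithine carrier, had 1, 3 and 2 reads in DICER1-ifKO libraries and 0, 0 and 3 reads in WT libraries. Neither had enough reads to be tested. The 4 members highest per kilobase made up 48.2% of the family's summed CPM.

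**Figure D3:**
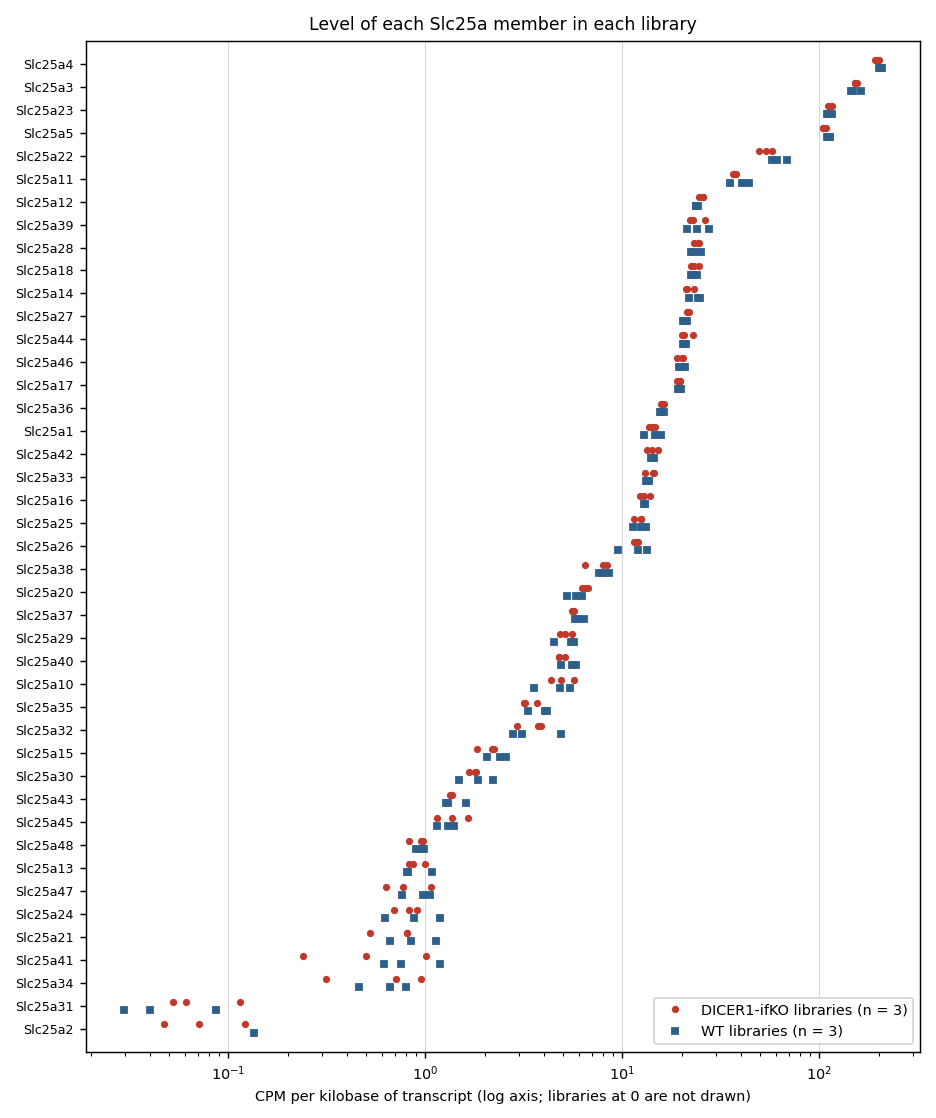
CPM per kilobase of transcript (x axis, log scale) of the members in each library, with 1 not shown, ordered by their mean; red circles are the 3 DICER1-ifKO libraries and blue squares the 3 WT libraries. The order runs from Slc25a4 at 201 to Slc25a2 at 0.0625, and within most members the libraries of both groups are intermixed.

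Among the aspartate/glutamate and glutamate carriers, 0 of 4 passed, with 2 positive and 2 negative. Slc25a22, which takes glutamate into mitochondria together with a proton and whose human mutations cause epilepsy of early infancy, lies at chr7:141429744-141437892 on the minus strand (GRCm38). It had 150.7, 138.9 and 161.8 CPM in DICER1-ifKO libraries, against 193.3, 162.1 and 171.7 CPM in WT libraries. All 3 DICER1-ifKO libraries lay below all 3 WT libraries, by the narrowest of margins, and WT replicate 1 was the highest of the 6. The means were 150 ± 11.4 CPM in DICER1-ifKO and 176 ± 16.0 CPM in WT (SD, n = 3 each), a log2 fold change of -0.22 (SE 0.06, 95% interval -0.35 to -0.09), or -14.1%. The edgeR test gave it an unadjusted p of 0.00178 and, over all genes, an adjusted p of 0.176, which does not pass. With no filter on low counts it passed (adjusted p = 0.023, where 0.673% of all genes passed), as it did without WT replicate 2 (log2 fold change -0.27, adjusted p = 0.0394, where 0.597% of all genes passed); without WT replicate 1 the log2 fold change was -0.15 (adjusted p = 0.464 in edgeR). Over all 12 alternative settings its sign stayed negative, with an adjusted p between 0.023 and 0.527. The sums of the dentate granule cell markers and of the excitatory neuron and astrocyte markers separated the same libraries, as given above. Among the single dentate markers only Calb1 did so (lower), and among the excitatory neuron markers only Camk2a (higher). Of the astrocyte markers Slc1a2 (higher) and Aqp4 (lower) did, in opposite directions. The sums thus followed single abundant or shifted genes and not whole lists. The part of these markers in the Slc25a22 difference was not tested.

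Slc25a18, the other glutamate carrier, had 42.46, 46.96 and 44.09 CPM in DICER1-ifKO libraries and 42.56, 42.93 and 45.81 CPM in WT libraries. The groups overlapped (log2 fold change 0.02, SE 0.06), and its level per kilobase was 23.1, against 58.0 for Slc25a22. Slc25a12, the calcium-regulated aspartate/glutamate carrier of the malate-aspartate shuttle in brain and muscle (chr2:71271063-71367749, minus strand), had 156.2, 164.1 and 163.0 CPM in DICER1-ifKO libraries and 150.2, 149.9 and 153.4 CPM in WT libraries. Every DICER1-ifKO library was above every WT library, with means of 161 ± 4.29 CPM in DICER1-ifKO and 151 ± 1.94 CPM in WT (SD, n = 3 each). The log2 fold change of 0.09 (SE 0.05) had an unadjusted p of 0.0537 and an adjusted p of 0.492 in edgeR. Its transcript has 6351 bases, and with an offset for transcript length the log2 fold change was 0.05 (adjusted p = 0.784 in edgeR). Slc25a13, the same carrier's liver form, had 3.052, 2.664 and 2.539 CPM in DICER1-ifKO libraries and 2.469, 2.518 and 3.321 CPM in WT libraries, with overlapping groups (log2 fold change -0.03, SE 0.20). Per kilobase Slc25a12 stood at 24.6 and Slc25a13 at 0.9. The 4 enzymes of the malate-aspartate shuttle (Got1, Got2, Mdh1 and Mdh2) had log2 fold changes between -0.04 and -0.01, and 0 passed.

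The tables count reads for each annotated transcript, and reads in shared exons are counted for several transcripts, so the transcripts of a gene are not independent. In a fit over all 60500 transcripts with enough reads, 0 of 170 transcripts of members passed (edgeR, Benjamini-Hochberg), where 0.0777% of all transcripts did. At an unadjusted p below 0.05 stood 16 member transcripts (9.41%, against 9.44% of all transcripts), of which 13 were Slc25a22 transcripts. All 18 Slc25a22 transcripts had negative log2 fold changes, between -0.33 and -0.14. The lowest adjusted p of any member transcript was 0.0639, for Slc25a22-014 (chr7:141430954-141432038, log2 fold change -0.32, SE 0.07), which GENCODE release M21 lists as a transcript with a retained intron and 3 exons towards the 3′ side of the gene. It had 15.8, 15.2 and 16.9 CPM in DICER1-ifKO libraries and 19.3 to 20.6 CPM in WT libraries, in CPM of all transcript counts, and the groups were well apart. Slc25a22-017 (chr7:141432111-141437592), a coding transcript that ends before the exons of Slc25a22-014, had 16.2, 15.4 and 17.4 CPM in DICER1-ifKO libraries and 19.2, 17.3 and 17.7 CPM in WT libraries. Its groups overlapped (log2 fold change -0.14, SE 0.07, adjusted p = 0.552 in edgeR). Reads of Slc25a22-014 were 97.0%, 98.7% and 96.9% of those of Slc25a22-017 in DICER1-ifKO libraries and 107%, 112% and 113% in WT libraries. Slc25a22-014 was thus lower relative to Slc25a22-017 in every DICER1-ifKO library than in any WT library. This pair was chosen after the values were seen and the ratio was not tested. Without WT replicate 2, 8 of 172 member transcripts passed (4.65%), all 8 of Slc25a22 and so sharing reads, where 0.468% of all transcripts passed; in each of the other 5 fits that left out 1 library, 0 did.

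**Figure D4:**
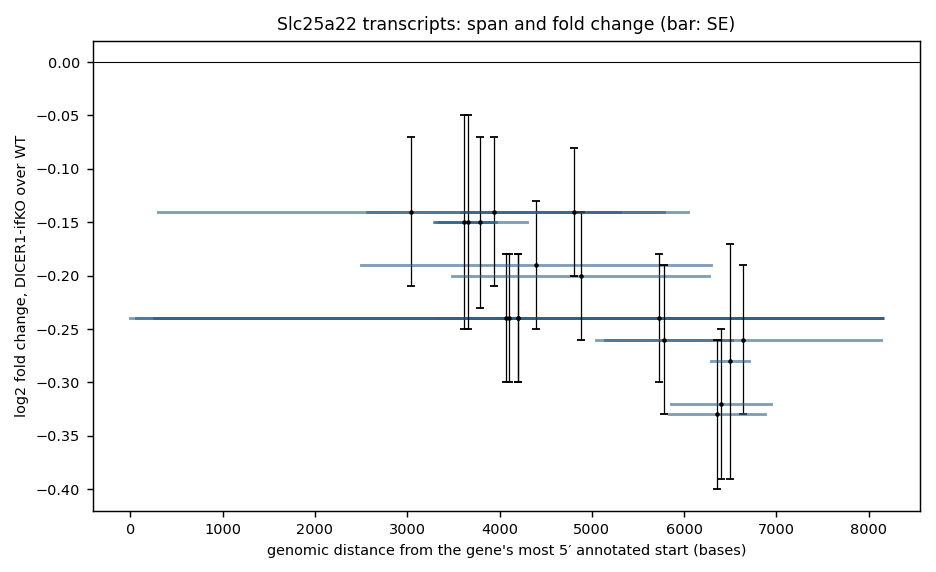
Log2 fold change (y axis, DICER1-ifKO over WT) of the 18 annotated Slc25a22 transcripts against their genomic span (x axis, bases from the gene's most 5′ annotated start); horizontal lines are spans, points their midpoints and vertical bars the SE. All 18 lie below 0. The values from -0.33 to -0.26 belong to spans that begin in the 3′ part of the gene, and those at -0.14 and -0.15 to spans that begin nearer the 5′ end. Slc25a22-001, which begins at the most 5′ start and spans nearly the whole gene, is at -0.24, so the start alone does not order the values.

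In the list of ADP/ATP, ATP-Mg and phosphate carriers, Slc25a17, Slc25a42 and Slc25a43 were also placed. Of its 10 tested members 0 passed, with 3 positive, 7 negative and a median log2 fold change of -0.03. Slc25a4 (chr8:46206797-46211284, minus strand) had 385.5, 367.9 and 381.5 CPM in DICER1-ifKO libraries and 401.7, 395.5 and 386.9 CPM in WT libraries. Slc25a5 (chrX:36795651-36798807, plus strand), the ADP/ATP carrier of dividing and many other cells, had 134.5, 129.6 and 129.3 CPM in DICER1-ifKO libraries and 139.3, 134.8 and 140.5 CPM in WT libraries. For both carriers all DICER1-ifKO libraries lay just below all WT libraries. The log2 fold change was -0.06 for Slc25a4 (SE 0.04, adjusted p = 0.682) and -0.08 for Slc25a5 (SE 0.05, adjusted p = 0.617 in edgeR). Per kilobase, Slc25a4 was 1.85, 1.83 and 1.90 times Slc25a5 in DICER1-ifKO libraries and 1.86, 1.89 and 1.77 times in WT libraries, so their balance overlapped between the groups. Slc25a5 has processed copies elsewhere in the genome, and how reads that fit several places were counted is not given in the sources used here. Slc25a3, which brings phosphate to the ATP synthase, had 249.3, 243.6 and 244.4 CPM in DICER1-ifKO libraries and 260.6, 233.7 and 238.8 CPM in WT libraries, with all DICER1-ifKO libraries inside the WT range (log2 fold change 0.01, SE 0.05).

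The ATP-Mg/phosphate carriers exchange adenine nucleotides for phosphate under the control of calcium. Slc25a23 had 388.5, 369.5 and 385.4 CPM in DICER1-ifKO libraries and 388.9, 370.4 and 365.0 CPM in WT libraries, with overlapping groups (log2 fold change 0.03, SE 0.04). Its transcript Slc25a23-002, a short form with a retained intron at the 5′ end, held 9.06%, 9.43% and 9.06% as many reads as the full transcript in DICER1-ifKO libraries and 7.18%, 8.21% and 8.12% in WT libraries. Here every DICER1-ifKO share was above every WT share, but the transcript did not pass (log2 fold change 0.24, SE 0.07, adjusted p = 0.237 in edgeR), and it too was picked after its values were seen. The gene's exons overlap those of Gm17168 on the other strand over 4.2% of their length, and whether counting used the strand is not given in the sources used here. Slc25a25 had 41.1, 37.8 and 40.82 CPM in DICER1-ifKO libraries and 41.2, 43.62 and 37.26 CPM in WT libraries, with overlapping groups (log2 fold change -0.03, SE 0.07). Slc25a41, the form without a calcium-binding part, lies 2056 bases from Slc25a23 and had 1.234, 0.6106 and 0.293 CPM in DICER1-ifKO libraries and 1.447, 0.7553 and 0.9224 CPM in WT libraries. Its groups overlapped (log2 fold change -0.58, SE 0.41, adjusted p = 0.688 in edgeR), and leaving out DICER1-ifKO replicate 1 gave a log2 fold change of -1.17, and leaving out replicate 3 of the same group -0.16. Slc25a43, 18448 bases from Slc25a5 on the X chromosome, had 1.493, 1.499 and 1.514 CPM in DICER1-ifKO libraries and 1.788, 1.448 and 1.414 CPM in WT libraries, and the groups overlapped (log2 fold change -0.03, SE 0.24). Slc25a24 (log2 fold change -0.13, SE 0.22), the coenzyme A carrier Slc25a42 (0.00, SE 0.06) and the peroxisomal cofactor carrier Slc25a17 (0.00, SE 0.06) also overlapped.

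Of the 4 di- and tricarboxylate carriers 0 passed, with 1 positive, 3 negative and a median of -0.06. Slc25a11, the oxoglutarate/malate exchanger that is the other carrier of the malate-aspartate shuttle, had 63.37, 62.12 and 64.41 CPM in DICER1-ifKO libraries and 75.42, 60.11 and 69.55 CPM in WT libraries. The WT libraries were spread on both sides of the DICER1-ifKO libraries, with WT replicate 1 the highest (log2 fold change -0.11, SE 0.07, adjusted p = 0.629 in edgeR). Without WT replicate 1 its log2 fold change was -0.03, and without WT replicate 2 it was -0.19. Slc25a21, which carries oxoadipate from lysine breakdown, had 1.363, 2.109 and 2.1 CPM in DICER1-ifKO libraries and 2.213, 2.958 and 1.722 CPM in WT libraries, and the groups overlapped (log2 fold change -0.29, SE 0.25; -0.04 without WT replicate 2 and -0.48 without WT replicate 3). The citrate carrier Slc25a1 (-0.02, SE 0.08) and the dicarboxylate carrier Slc25a10 (0.11, SE 0.14) overlapped as well, these values being log2 fold changes.

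The uncoupling-protein-like carriers, named for their sequence likeness to the proton leak protein of brown fat, had 1 positive and 2 negative members of 3, and 0 passed. Slc25a14, also called UCP5, had 37.85, 38.19 and 41.51 CPM in DICER1-ifKO libraries and 39.58, 43.43 and 44.71 CPM in WT libraries. Its groups overlapped by 1 library (log2 fold change -0.12, SE 0.07, adjusted p = 0.548 in edgeR). Slc25a27, also called UCP4 and known from brain, had 62.59, 62.0 and 63.43 CPM in DICER1-ifKO libraries and 59.16, 60.43 and 61.37 CPM in WT libraries. These groups did not overlap, yet the difference was small (log2 fold change 0.05, SE 0.05, adjusted p = 0.777 in edgeR). Slc25a30 had a log2 fold change of -0.09 (SE 0.14). The named uncoupling proteins, which belong to the same protein family under other symbols, were listed beside them: Ucp2 had 9.09, 7.05 and 6.836 CPM in DICER1-ifKO libraries and 10.04, 10.13 and 9.101 CPM in WT libraries, so that every DICER1-ifKO library was lower, by the smallest of gaps. Its log2 fold change of -0.36 (SE 0.13) did not pass (adjusted p = 0.302 in edgeR). Ucp3 had a log2 fold change of 0.10 (SE 0.27), and Ucp1 had 5 reads or fewer in each library and was not tested.

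The list of amino acid carriers, in which Slc25a47 and Slc25a48 were also placed, had 1 positive and 5 negative members of 6 tested. Of these 0 passed, and the median was -0.05. Slc25a15, the ornithine/citrulline carrier of the urea cycle, had 7.662, 7.438 and 6.25 CPM in DICER1-ifKO libraries and 8.768, 8.246 and 7.072 CPM in WT libraries, with overlapping groups (log2 fold change -0.17, SE 0.13, adjusted p = 0.704 in edgeR). Slc25a47, known from liver, had 1.688, 0.9992 and 1.221 CPM in DICER1-ifKO libraries and 1.532, 1.196 and 1.66 CPM in WT libraries, and the groups overlapped (log2 fold change -0.18, SE 0.27). It lies 15245 bases from Slc25a29, the carrier of basic amino acids, whose log2 fold change was -0.01 (SE 0.11). The glycine carrier Slc25a38 (-0.06, SE 0.10), Slc25a48 (-0.04, SE 0.18) and the branched-chain amino acid carrier Slc25a44 (0.04, SE 0.06) completed the group, by log2 fold change.

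The carriers of carnitine, cofactors and methyl donors had 5 positive and 1 negative members of 6, with a median of 0.04, and 0 passed. Slc25a20, which exchanges acylcarnitine for carnitine so that fatty acids can be oxidised, had 11.56, 11.88 and 11.08 CPM in DICER1-ifKO libraries and 10.39, 9.316 and 11.13 CPM in WT libraries. The groups overlapped by 1 library of each (log2 fold change 0.16, SE 0.11, adjusted p = 0.649 in edgeR), and with a library left out the log2 fold change was 0.09 to 0.23. Slc25a16 (0.01, SE 0.06), the S-adenosylmethionine carrier Slc25a26 (0.01, SE 0.09), the folate carrier Slc25a32 (-0.05, SE 0.17) and Slc25a45 (0.13, SE 0.18) had overlapping groups, the values being log2 fold changes.

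Iron and glutathione carriers had 1 positive and 3 negative members of 4, and 0 passed. Slc25a37, mitoferrin 1, which brings iron to haem synthesis in red cell precursors, had 23.7, 23.26 and 23.49 CPM in DICER1-ifKO libraries and 24.86, 23.86 and 26.75 CPM in WT libraries. The groups were apart by a small margin (log2 fold change -0.10, SE 0.07, adjusted p = 0.696 in edgeR). Slc25a28, mitoferrin 2, which serves other cells, had 35.32, 37.8 and 37.16 CPM in DICER1-ifKO libraries and 38.31, 34.24 and 35.36 CPM in WT libraries, with overlapping groups (log2 fold change 0.04, SE 0.07). The glutathione carrier Slc25a39 had 35.39, 36.53 and 42.39 CPM in DICER1-ifKO libraries and 44.09, 34.3 and 38.37 CPM in WT libraries, and its close relative Slc25a40 had 14.22, 13.32 and 13.33 CPM in DICER1-ifKO libraries and 16.17, 15.36 and 13.65 CPM in WT libraries. In both the groups overlapped, with a log2 fold change of -0.02 for Slc25a39 (SE 0.08) and of -0.14 for Slc25a40 (SE 0.09).

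Both pyrimidine nucleotide carriers, which supply the matrix for mitochondrial DNA and RNA synthesis, had positive log2 fold changes, Slc25a36 with the exception of an offset for transcript length (-0.01) and the fit without DICER1-ifKO replicate 3 (-0.01), and neither passed. Slc25a33 had 24.67, 26.98 and 27.39 CPM in DICER1-ifKO libraries and 25.11, 25.81 and 24.84 CPM in WT libraries, and Slc25a36 had 63.82, 63.34 and 65.97 CPM in DICER1-ifKO libraries and 62.65, 65.84 and 63.4 CPM in WT libraries. The groups overlapped in both, with a log2 fold change of 0.06 for Slc25a33 (SE 0.07) and of 0.01 for Slc25a36 (SE 0.05). Of the remaining members, Slc25a46, an outer membrane protein tied to mitochondrial shape, had a log2 fold change of -0.02 (SE 0.05). Slc25a35, whose substrate is not settled, had 11.69, 11.6 and 13.48 CPM in DICER1-ifKO libraries and 14.81, 12.02 and 15.13 CPM in WT libraries, with overlapping groups (log2 fold change -0.18, SE 0.11, adjusted p = 0.606 in edgeR). Of its exons, 31.6% of the length overlaps Rangrf on the other strand. Slc25a34 had 2.532, 0.8327 and 1.904 CPM in DICER1-ifKO libraries and 2.128, 1.762 and 1.23 CPM in WT libraries, with overlapping groups (log2 fold change 0.05, SE 0.31).

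Other genes that serve the same membranes were read from the same fit. Of 40 tested, 0 passed, and 11 were positive and 29 negative, where 49.0% of all genes tested were positive. Their median log2 fold change was -0.02, beside -0.003 over all genes. At an unadjusted p below 0.05 stood 6 (15.0%), against 10.4% of all genes. The part of transcript length in the signs of these genes was not tested. The path that imports carrier proteins, made of the outer membrane translocase, the small chaperones between the membranes and the inner membrane translocase, had 1 positive and 10 negative genes of 11 (median -0.06), with Timm13 at -0.18 (SE 0.09, adjusted p = 0.492 in edgeR). Of 15 other inner membrane transporters 7 were positive and 8 negative, and of 5 outer membrane pores and carrier homologues 1 was positive and 4 negative, among them the pore Vdac3 at -0.10 (SE 0.05, adjusted p = 0.461 in edgeR). The pyruvate carrier subunit Mpc2, listed under its older symbol Brp44, had 40.26, 42.58 and 39.89 CPM in DICER1-ifKO libraries and 46.9, 41.61 and 46.61 CPM in WT libraries, and the groups overlapped (log2 fold change -0.14, adjusted p = 0.471 in edgeR). Sfxn4 of the sideroflexins had 30.97, 32.36 and 33.25 CPM in DICER1-ifKO libraries and 25.03, 29.84 and 27.86 CPM in WT libraries, with the groups apart (log2 fold change 0.22, SE 0.07, adjusted p = 0.278 in edgeR).

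Because the enzyme that Dicer1 encodes makes microRNAs, 3′ UTRs of the members were searched for seed matches of 11 microRNAs known from brain, shown here to let the sites below be read against them. Mature sequences are those of RefSeq (GRCm38.p6), written 5′ to 3′ with the seed, bases 2 to 8, in capitals; each has a seed of its own.
let-7a-5p: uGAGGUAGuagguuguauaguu
miR-9-5p: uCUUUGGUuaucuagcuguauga
miR-26a-5p: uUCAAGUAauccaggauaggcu
miR-29a-3p: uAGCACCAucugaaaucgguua
miR-30a-5p: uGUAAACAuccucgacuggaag
miR-125b-5p: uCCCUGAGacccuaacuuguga
miR-128-3p: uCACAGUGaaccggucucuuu
miR-132-3p: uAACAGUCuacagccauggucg
miR-138-5p: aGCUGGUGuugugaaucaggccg
miR-181a-5p: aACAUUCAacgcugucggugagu
miR-218-5p: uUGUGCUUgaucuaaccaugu

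A match was the 7-base reverse complement of a seed on the transcript's own strand, namely CTACCTC for let-7a, ACCAAAG for miR-9, TACTTGA for miR-26a, TGGTGCT for miR-29a, TGTTTAC for miR-30a, CTCAGGG for miR-125b, CACTGTG for miR-128, GACTGTT for miR-132, CACCAGC for miR-138, TGAATGT for miR-181a and AAGCACA for miR-218. Such a match is a run of letters and was not shown to be a working site. Of 41 tested members whose 3′ UTR is annotated with 50 bases or more, 27 held a match (median UTR length 1588 bases) and 14 held none (631 bases); among all tested genes with such a UTR, 9446 of 14288 held one (1606 bases) and 4842 none (389 bases). The 27 members with a match had a median log2 fold change of 0.00 with 14 positive, and the 14 without had a median of -0.05 with 3 positive. Over all genes the medians were 0.01 with a match and -0.02 without. Fold changes also rose with transcript length over 17112 genes (Spearman's rho 0.206), and the UTRs with a match were the longer ones. The parts of length and of matches in these medians were not tested. A let-7 match was held by 8 of the 41 members (19.5%, against 9.8% of all genes) and a miR-30 match by 3 (7.3%, against 14.8%). These shares were the furthest from those of all genes among the microRNAs searched, and they rest on few members. For miR-128 the shares were 19.5% and 21.1%, and for miR-29 14.6% and 14.2%. The differences in share were not tested.

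Slc25a22 held 1 match of the 11, for miR-29a, at base 1111 of a 3′ UTR of 1361 bases. Slc25a12 held 7 matches for 6 of the microRNAs in 4092 bases, and Slc25a23 and Slc25a14 held 1 each. These sites are shown with 8 bases on each side and the match in capitals, for the member with the smallest p, for the positive member with the smallest p, for the abundant Slc25a23 and for Slc25a14.
Slc25a22, miR-29a-3p: tgaagtgcTGGTGCTgtgtccct
Slc25a12, let-7a-5p: tgccctcgCTACCTCctcttcaa
Slc25a12, miR-26a-5p: gtggctgtTACTTGAtagctggc
Slc25a12, miR-128-3p: ctattcttCACTGTGcctctttt
Slc25a12, miR-132-3p: tgttctggGACTGTTgctgagag
Slc25a12, miR-181a-5p, first: gccatgttTGAATGTatccagtt
Slc25a12, miR-181a-5p, second: ggcttgaaTGAATGTctttttat
Slc25a12, miR-218-5p: aaaaataaAAGCACAccaaaatg
Slc25a23, let-7a-5p: accaagtcCTACCTCcctgccca
Slc25a14, miR-30a-5p: gatgtttgTGTTTACagaagcag

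The Slc25a12 matches lay at bases 1609 (let-7a), 1193 (miR-26a), 3038 (miR-128), 3430 (miR-132), 457 and 2136 (miR-181a) and 869 (miR-218) of its 3′ UTR. Slc25a12 and Slc25a20 were the positive members among the 12 with the smallest p. The 7 matches of Slc25a12 lay in a 3′ UTR of 4092 bases, the longest among the members searched. Slc25a12 had a log2 fold change of 0.09. Slc25a35 held the most, 9 matches for 6 microRNAs, and had a log2 fold change of -0.18. Slc25a16 and Slc25a36 held 7 each and both had a log2 fold change of 0.01. The members with 7 or more matches therefore lay on both sides of 0, and 0 of them passed the test.

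**Figure D5:**
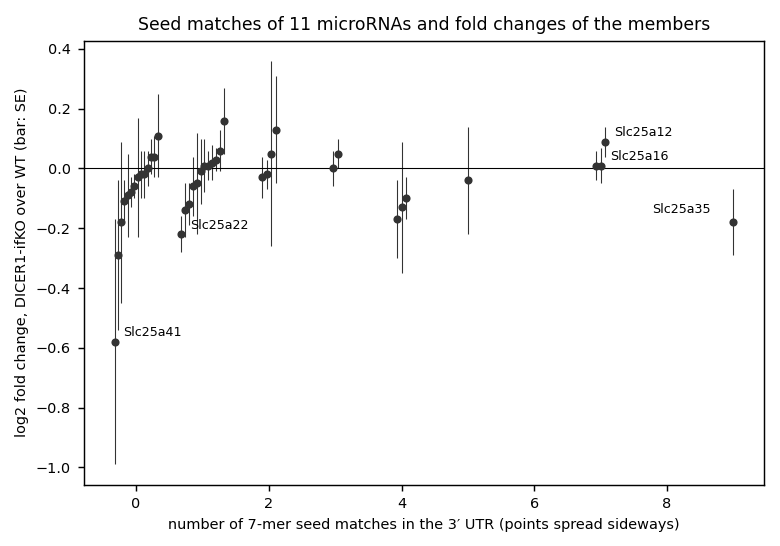
Log2 fold change (y axis, DICER1-ifKO over WT, bars SE) of the tested members with a 3′ UTR, with 1 not shown, against the number of seed matches of the 11 microRNAs in it (x axis; points with the same number are spread sideways). The members with no match run from -0.58 (Slc25a41) to 0.11, and the 4 with 7 or 9 matches run from -0.18 (Slc25a35) to 0.09 (Slc25a12).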

How the data were processed

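Messenger RNA was sequenced in 6 hippocampal libraries. Per the labels' protocols, each library pooled total RNA of 3 mice (9 mice per genotype, where the series' design text states 12) and was made with a stranded kit. The submitters' processing notes name the builds GRCm38 and mm10 and the tools TopHat2 2.0.6, Bowtie2 2.0.5, SAMtools 0.1.18, CASAVA 1.8.2 and DESeq2. Which counter, annotation release, strand setting and filters were used is not given in these sources. For each of 76938 transcripts the authors deposited 2 values, which the file headers call raw and normalised counts. The deposited raw counts are whole reads. Dividing them by a constant for each library (0.967, 1.13 and 1.28 for DICER1-ifKO, 0.72, 0.994 and 1.01 for WT) gives the deposited normalised values (unit signal), which were not tested here.

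The tables hold counts per transcript, where the planned design had assumed counts per gene, and each symbol was read from its transcript with the highest mean count; 18 of the 44 members have 1 transcript. Libraries of a genotype differed by more than sampling noise (chi-square per degree of freedom 1.75 to 4.35). The quasi-likelihood F-test of edgeR 4.0.16 (R 4.3.3) was run on the counts with TMM normalization, filterByExpr at a minimum count of 10, and genotype alone in the model; p-values were adjusted by Benjamini-Hochberg over 17405 genes, and 0.05 was the threshold. Fold changes use a prior count of 0.125. The steps were tested on simulated data. They recovered 45.6% of genes given a 1.25-fold change, 72.8% at 1.5-fold and 92% at 2-fold. Of the simulated calls 5.19% were false. A small change in a member can therefore go without a call. Levels per kilobase use transcript lengths of GENCODE release M21 (GRCm38), matched by identical coordinates in 28 members and by the same gene's nearest span in 16. 3′ UTRs come from the same release. Alternatives were DESeq2 1.42.0, its size factors in edgeR, no filter, a replicate block, leaving out each library, sums over transcripts and an offset for transcript length.

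Values per library are given for members passing the test, the 12 with the smallest p, the 6 highest per kilobase, the 5 tested members nearest to the filter, and pairs of related members. The members, lists, markers and microRNAs were chosen with earlier results of these data known. A few genes are not reported here by name.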

Additional observations from a re-analysis of the deposited data

How the results depend on the processing

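Of the 44 members 0 to 1 passed when a library was left out, 1 without a filter on low counts, and 0 under the other alternatives (in DESeq2 0 of the 11 with an adjusted p); the member was Slc25a22 each time (adjusted p = 0.023 without a filter in edgeR). Over all genes, 28 passed in the reported test, 80 in DESeq2 (of 3908 to which it gave an adjusted p), 151 without a filter, 7 for sums over transcripts and 6 to 105 when a library was left out (6 without DICER1-ifKO replicate 1, 14 without WT replicate 3, 18 without DICER1-ifKO replicate 2 and likewise without WT replicate 1, 105 without WT replicate 2). Transcripts of members that passed numbered 0 to 8 when a library was left out, the 8, all of Slc25a22, without WT replicate 2, where 0.468% of all transcripts passed. The members' median log2 fold change lay between -0.041 and 0.001 when a library was left out, and 0 of the 40 other mitochondrial genes passed under any alternative, 20 of them having no adjusted p in DESeq2. With the replicate number as a block, 22 genes and 0 members passed and the members' median was -0.02; the labels share numbers between the groups, but same-numbered libraries did not deviate together (Pearson's r -0.0681, 0.0278 and -0.0863), so the numbers were not taken to pair them.

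Of 26 members with values per library, 18 kept the sign of the fold change under every alternative and 8 did not, each with a reported value between -0.03 and 0.05. When a library was left out, the log2 fold change ran from -0.26 to 0.39 for Slc25a34, -0.1 to 0.07 for Slc25a39, -0.09 to 0.03 for Slc25a25, -0.11 to 0.13 for Slc25a13, -0.02 to 0.06 for Slc25a3 and Slc25a18, -0.09 to 0.07 for Slc25a43 and -0.01 to 0.03 for Slc25a36, which was also -0.01 with the offset for transcript length. The cause was not tested. The members below 20 CPM had SEs up to 0.41, and leaving out a library moved several of them without a change of sign, as Slc25a41 (-1.17 to -0.16), Slc25a21 (-0.48 to -0.04) and Slc25a47 (-0.38 to -0.03). For Slc25a2 and Slc25a31 no difference was detectable at this depth.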
